A study of Mus musculus with 8 samples.

Results

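The RNA exosome core is described here through 10 genes, Exosc1, Exosc2, Exosc3, Exosc4, Exosc5, Exosc7, Exosc8, Exosc9, Exosc10 and Dis3, chosen by name from the 46078 genes counted in fully grown mouse oocytes. Exosc6, which encodes another subunit of the ring, was not analysed here. The study asked what the oocyte transcriptome looks like without Cnot7 and Cnot8, the catalytic deadenylases of the CCR4–NOT complex. GV (germinal vesicle, meaning arrested in meiotic prophase) oocytes came from 4-week-old PMSG-primed females of C57BL/6J background. The 4 control libraries carried the Zp3-Cre transgene, which expresses Cre recombinase from an oocyte promoter, and the 4 CNOT7&8 KO libraries came from oocytes in which the same transgene had deleted floxed Cnot7 and Cnot8. Each library was made from 100 oocytes. The Zp3 promoter is active in growing oocytes, so deletion is limited to the germ cell and starts during its growth. The labels do not say whether the libraries came from separate females, so the p-values measure the spread between these libraries, which may be partly technical.

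The exosome degrades RNA from its 3′ end and, in the cytoplasm, it can take over an mRNA once deadenylases have shortened the poly(A) tail. Its core is a barrel in which a ring of RNase PH-like subunits (Exosc4, Exosc5, Exosc7, Exosc8 and Exosc9 here) is covered by a cap of RNA-binding subunits (Exosc1, Exosc2 and Exosc3). The barrel itself has no catalytic activity in mammals and threads RNA towards 2 nucleases, the processive Dis3 and the distributive Exosc10, the latter mainly in the nucleus and nucleolus. Loss of EXOSC10 in mouse oocytes is known to impair their growth and maturation.

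Maternal mRNAs in these cells are often controlled through the cytoplasmic polyadenylation element, UUUUAU in RNA, which lies in the 3′UTR near the polyadenylation signal. It was searched as TTTTAT on the transcript strand of the longest 3′UTR of each gene (GENCODE vM21 models and transcript sequences, GRCm38). The element was present in 5 of the 10 exosome genes, against 56.2% of 15132 tested genes with a 3′UTR. Within the last 150 bases it was present in 4 of 10, against 18.8% of tested genes, although the median 3′UTR of the exosome genes was 562 bases and that of the tested genes 1118. The copy nearest the annotated end of each of the 5 genes is shown to place the element in its context, with capitals marking TTTTAT, written 5′ to 3′ on the gene's strand:
Exosc1: ttttttttttTTTTATtagatggcca
Exosc3: ttataaaaacTTTTATataataaact
Exosc4: agccaaataaTTTTATgtttgaggat
Exosc8: tgcacaggctTTTTATactaaataaa
Dis3: aagttatgtcTTTTATcttgctgtgt

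These windows lie at chr19:41922392-41922417 (minus strand) for Exosc1, chr4:45316627-45316652 (minus strand) for Exosc3, chr15:76330606-76330631 (plus strand) for Exosc4, chr3:54728704-54728729 (minus strand) for Exosc8 and chr14:99075602-99075627 (minus strand) for Dis3. In Exosc3 the element ends 2 bases before the next polyadenylation hexamer and in Exosc8 it ends 4 bases before it, both with AATAAA. In Exosc1 and Exosc4 the distances were 32 and 31 bases, both to ATTAAA, and in Dis3 the last copy lay 406 bases before the annotated end. Exosc1 held 5 copies in all, Dis3 held 4 and Exosc4 held 2. A match is a description of letters and does not show that a factor binds there.

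Depth ranged from 8639444 to 44092144 counts per library, so that 3 counts corresponded to between 0.0802 and 0.326 normalized CPM (counts per unit of sequencing depth after TMM scaling, which equalises libraries through the bulk of their genes). The exosome genes had between 36 and 2588 counts per library. Cnot8 fell to 35.2 ± 1.40 CPM in KO oocytes from 168 ± 20.0 CPM in controls (SD, n = 4 each). Cnot7 was 719 ± 70.8 CPM in KO against 933 ± 77.3 CPM in control oocytes. Neither gene's groups overlapped, as was the case for 48.4% of all genes tested. The log2 fold change of Cnot7 was -0.38, against a median of -0.26 over tested genes averaging 10 CPM or more. Counts over a whole gene include exons outside a deleted part, and the paper reports by immunoblot that both proteins were depleted. Each library was also compared with the mean of the other libraries of its group. Control replicate 1 and KO replicate 4 stood apart, with short genes (under 2 kb) low against long genes (4 kb or more). The gaps were 0.38 and 0.33 on the log2 scale. The other 6 libraries had gaps of 0.059 to 0.21 in the other direction, which largely follows from this way of comparing. The summed level of 10 oocyte markers was 21347 to 25036 CPM in control and 17453 to 20210 CPM in KO libraries, and 6 of the 10 were lower in KO. That of 12 granulosa and cumulus markers was 115 to 155 CPM in control and 179 to 220 CPM in KO libraries. None of these 12 was at 0 throughout, and Foxl2 had 2 counts over all control and 1 over all KO libraries. Of 11 tested, 5 rose (Fshr, Inha, Inhba, Nr5a2 and Hsd3b1) and 1 fell (Cyp19a1). The most abundant markers went opposite ways, Nr5a2 from 56.6 to 122 CPM and Cyp19a1 from 58.4 to 31.3 CPM. Inha rose from 6.86 to 25.9 CPM. The part of these markers in the results below was not tested.

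In CNOT7&8 KO oocytes, 5 of the 10 exosome genes fell (Exosc1, Exosc5, Exosc7, Exosc9 and Exosc10), 1 rose (Exosc2) and 4 did not pass the test (Exosc3, Exosc4, Exosc8 and Dis3). These calls used the quasi-likelihood test of edgeR at an adjusted p of at most 0.05 (Benjamini-Hochberg, over 19241 genes tested), and all 10 exosome genes passed the filter on low counts. Of all genes tested, 24.1% fell and 31.2% rose by the same rule, and among those averaging 10 CPM or more, a range that holds every exosome gene but Exosc5, 41.9% fell and 20.9% rose. With 4 of 9 falling there, the exosome genes did not stand out from genes of similar level. The median log2 fold change was -0.36 over the exosome genes, 0.12 over all genes tested and -0.26 over those of at least 10 CPM. Summed over the 10 genes, normalized exosome RNA was 341 to 367 CPM in control libraries and 247 to 282 CPM in KO libraries, without overlap. The sums overlapped when scaled by library size alone. For example, control replicate 1 had 12749 of 44092144 counts and KO replicate 2 had 5138 of 16432525. In bulk RNA, fewer cells of a type and less RNA per cell cannot be told apart, and CPM gives shares of the library, not molecules per oocyte.

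**Figure D1:**
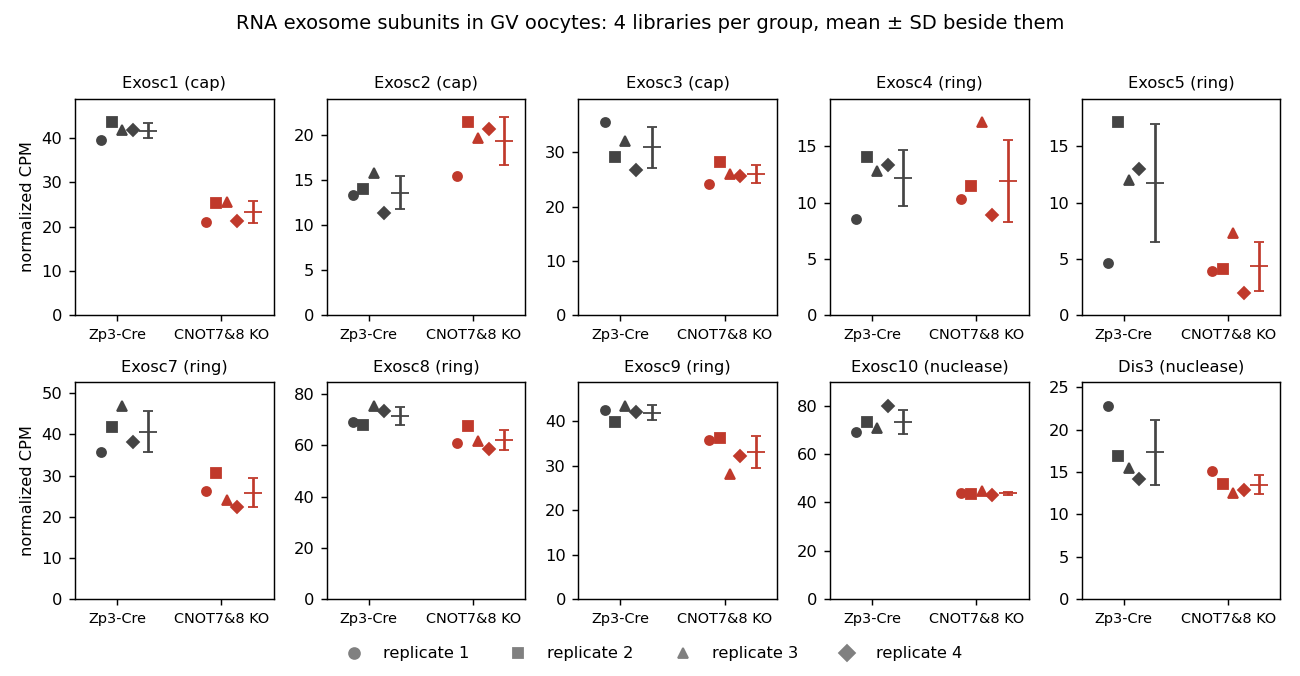
Normalized CPM (vertical axes, starting at 0) of each exosome gene in the 4 Zp3-Cre (grey) and 4 CNOT7&8 KO (red) libraries, with symbols for replicates and the mean ± SD beside them. Exosc1, Exosc7, Exosc8, Exosc9 and Exosc10 have all KO libraries below all control libraries, Exosc2 has higher values in KO, and Exosc5 has control replicate 1 at 4.62 CPM, among the KO values.

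Among the cap subunits, which bind RNA at the entry of the barrel, the 3 genes went different ways. Exosc1 (CSL4, chr19:41922292-41933423, minus strand) had 39.5, 43.7, 41.8 and 41.9 CPM in control replicates 1 to 4 and 21.1, 25.4, 25.5 and 21.3 CPM in KO replicates 1 to 4. Every KO library was below every control library, and the mean fell from 41.7 ± 1.72 to 23.3 ± 2.46 CPM, which is 55.9% of control. The log2 fold change was -0.84 (SE 0.12) with an adjusted p of 0.000124 in edgeR's quasi-likelihood test, and the exact two-sided permutation test gave 0.0286, the smallest p that 4 against 4 libraries allow.

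Exosc2 (RRP4, chr2:31670715-31681349, plus strand) moved in the opposite direction. It had 13.4, 14.0, 15.7 and 11.4 CPM in control replicates 1 to 4 and 15.4, 21.4, 19.7 and 20.7 CPM in KO replicates 1 to 4. The groups overlapped through a single pair of libraries, KO replicate 1 lying just under control replicate 3, and the other 3 KO libraries were above every control. The mean rose from 13.6 ± 1.80 to 19.3 ± 2.68 CPM, or 142% of control, with a log2 fold change of 0.51 (SE 0.16, adjusted p = 0.0159 by edgeR's quasi-likelihood test). The exact permutation test gave p = 0.0571. Without control replicate 4, the lowest library, the adjusted p of the edgeR test was 0.0510, so that this call rested in part on that library.

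Exosc3 (RRP40, chr4:45316613-45342732, minus strand), the other cap subunit, had 35.6, 29.2, 32.1 and 26.7 CPM in control and 24.1, 28.1, 26.0 and 25.6 CPM in KO replicates 1 to 4. Control replicate 4 lay within the KO range, and the log2 fold change of -0.25 (SE 0.13) did not pass the edgeR quasi-likelihood test (adjusted p = 0.118).

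Of the ring subunits, 3 of 5 fell. Exosc7 (RRP42, chr9:123113215-123136129, plus strand) had 35.7, 41.8, 47.0 and 38.2 CPM in control replicates 1 to 4 and 26.3, 30.5, 24.2 and 22.3 CPM in KO replicates 1 to 4. The groups did not overlap, and the mean fell from 40.7 ± 4.92 to 25.8 ± 3.52 CPM (63.5% of control, log2 fold change -0.66, SE 0.14). Its adjusted p was 0.00195 in edgeR's quasi-likelihood test.

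Exosc5 (RRP46, chr7:25659164-25671368, plus strand) was the only exosome gene that passed both the test and a 2-fold threshold, which 6.56% of tested genes passed downwards and 23.8% upwards. It had 4.62, 17.2, 12.04 and 13.0 CPM in control replicates 1 to 4 and 3.91, 4.12, 7.34 and 2.01 CPM in KO replicates 1 to 4. These values came from 173 to 348 counts in control and 36 to 119 counts in KO libraries, so it was also the exosome gene with the fewest counts. Control replicate 1 lay within the KO range and KO replicate 4 was the lowest of all, which are the 2 libraries that stood apart by gene length. By the length used there, its longest annotated transcript (5068 bases, a retained-intron form), Exosc5 would be a long gene. Its longest protein-coding transcript has 1680 bases. The mean was 4.34 ± 2.21 CPM in KO and 11.7 ± 5.22 CPM in control oocytes (37.1% of control), with a log2 fold change of -1.44 (SE 0.41, adjusted p = 0.0108 by edgeR's quasi-likelihood test). Leaving out both of these libraries, a choice made after seeing the data, gave the same log2 fold change of -1.44 with a smaller SE of 0.25. The adjusted p in the edgeR test was then 0.000229. Leaving out 1 library at a time moved the log2 fold change between -1.83 and -1.17.

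Exosc9 (RRP45, chr3:36552606-36565727, plus strand) fell by a smaller amount. It had 42.5, 39.8, 43.5 and 42.1 CPM in control and 35.7, 36.2, 28.2 and 32.1 CPM in KO replicates 1 to 4. All KO values were below all control values, the mean being 78.8% of control, with a log2 fold change of -0.34 (SE 0.12, adjusted p = 0.0293 by edgeR's quasi-likelihood test). It passed that threshold in only 8 of 19 alternative analyses, and its log2 fold change was -0.064 when counts were scaled by library size alone (edgeR adjusted p = 0.654).

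The remaining ring genes did not pass the test. Exosc8 (RRP43, chr3:54728678-54735393, minus strand) had 69.0, 67.8, 75.6 and 73.6 CPM in control and 60.9, 67.8, 61.6 and 58.5 CPM in KO replicates 1 to 4. Its highest KO library was just below its lowest control library, and the difference of -0.20 (log2, SE 0.10) had an adjusted p of 0.119 in edgeR's quasi-likelihood test. Exosc4 (RRP41, chr15:76327397-76330677, plus strand) had 8.53, 14.0, 12.8 and 13.3 CPM in control and 10.3, 11.4, 17.1 and 8.85 CPM in KO replicates 1 to 4. The groups overlapped over most of their range, with means of 12.2 ± 2.48 and 11.9 ± 3.63 CPM and a log2 fold change of -0.023 (SE 0.23, adjusted p = 0.938 by the edgeR test) that was positive under library size scaling, at 0.26.

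The 2 nucleases differed in how clearly they were separated between groups. Exosc10 (RRP6, chr4:148558429-148582401, plus strand) had 69.2, 73.1, 70.6 and 80.0 CPM in control replicates 1 to 4 and 43.7, 43.6, 44.5 and 42.9 CPM in KO replicates 1 to 4. The KO libraries were nearly identical to each other and all lay below all controls. The mean fell from 73.2 ± 4.82 to 43.7 ± 0.675 CPM (59.7% of control), with a log2 fold change of -0.74 (SE 0.10), an adjusted p of 8.74e-05 in edgeR's quasi-likelihood test and an exact permutation p of 0.0286.

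Dis3 (RRP44, chr14:99075206-99099770, minus strand) had 22.8, 16.8, 15.4 and 14.2 CPM in control and 15.1, 13.6, 12.5 and 12.9 CPM in KO replicates 1 to 4. The highest control value was that of replicate 1, one of the libraries that stood apart, and control replicate 4 was below KO replicate 1. The log2 fold change of -0.37 (SE 0.17) did not pass the edgeR quasi-likelihood test (adjusted p = 0.0839), and it was -0.20 without control replicate 1. In total, the groups did not overlap for 5 of the 10 exosome genes with TMM scaling, against 48.4% of all genes tested. With library size alone, the groups of Exosc7, Exosc8 and Exosc9 overlapped. Those of Exosc1 and Exosc10 stayed apart under it, and those of Exosc2 no longer overlapped. The share over all genes was not computed for that scaling.

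How libraries were scaled mattered for the weaker members. KO libraries had TMM factors of 1.07 to 1.14 and control libraries of 0.849 to 0.943. Scaling by library size alone moved the median log2 fold change of all tested genes from 0.12 to 0.40. That of tested genes of at least 10 CPM moved from -0.26 to 0.029, and that of the exosome genes from -0.36 to -0.071. Under that scaling 6 of 10 exosome genes had a negative and 4 a positive fold change. By the test 4 fell (Exosc1, Exosc5, Exosc7 and Exosc10) and Exosc2 rose, against 13.6% lower and 40.2% higher among all genes. These shares were not computed for genes of at least 10 CPM, the closer comparison by level. Exosc3 and Exosc8 turned to 0.035 and 0.080. Exosc1, Exosc7 and Exosc10 passed the test in the same direction in each of 19 alternative analyses, and Exosc5 in each of the 18 that kept it.

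**Figure D2:**
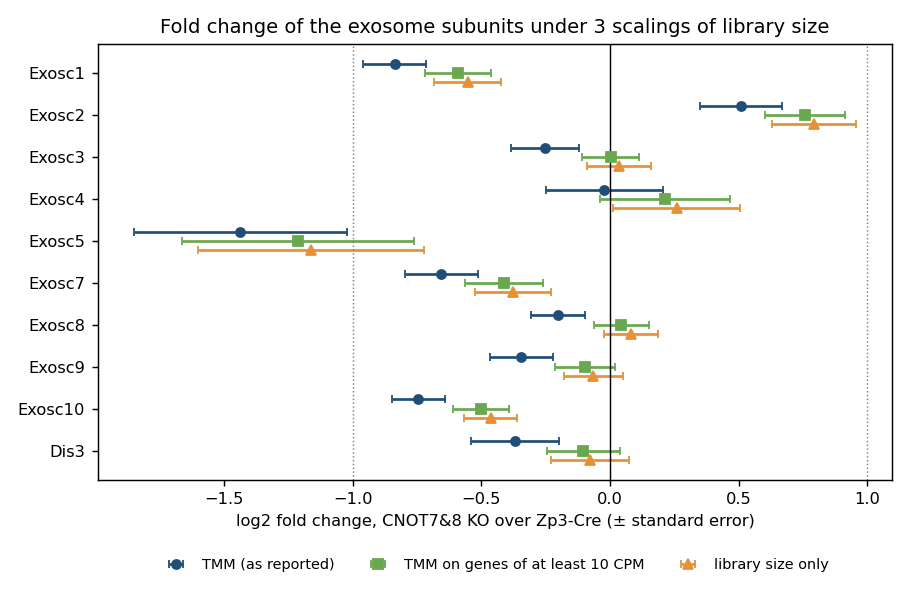
Log2 fold change (horizontal axis, KO over Zp3-Cre, bars show the standard error) of each exosome gene with TMM scaling, TMM computed from genes of at least 10 CPM, and library size alone. Dotted lines mark 2-fold changes, and Exosc1, Exosc5, Exosc7 and Exosc10 stay below 0 and Exosc2 above 0 under all 3 scalings, while Exosc3, Exosc4 and Exosc8 change sign.

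Ratios between subunits within a library need no scaling. Of the 45 ratios between 2 exosome genes, 18 did not overlap between control and KO libraries, against 52.3% of all pairs of genes averaging 10 CPM or more. Exosc5, which averaged less than 10 CPM, took part in 9 of the 45, and 1 of those 9 did not overlap. With or without Exosc5, the exosome genes differed among themselves no more often than that background. Exosc2 took part in 7 of the 18 non-overlapping ratios, all but its ratios to Exosc4 and Exosc5, although its ratios to genes of at least 10 CPM were non-overlapping for 61.5% of them. The ratio of Exosc2 to Exosc3 counts was 0.376, 0.479, 0.489 and 0.425 in control and 0.640, 0.762, 0.758 and 0.808 in KO replicates 1 to 4. Each KO library exceeded each control library, with means of 0.442 ± 0.0526 and 0.742 ± 0.0719. Against the nuclease Exosc10, the ratio of Exosc2 was 0.193, 0.191, 0.223 and 0.142 in control and 0.352, 0.491, 0.442 and 0.482 in KO replicates 1 to 4, again without overlap. The ratio of the cap genes Exosc1 to Exosc2 was 3.11 ± 0.432 in control and 1.22 ± 0.146 in KO oocytes (SD, n = 4 each).

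Exosc1 and Exosc10, which both fell, kept a ratio of 0.571 ± 0.0336 in control and 0.533 ± 0.0515 in KO oocytes, and these overlapped (exact permutation p = 0.229). The ratio of Exosc10 to Dis3 was 4.40 ± 1.07 in control and 3.25 ± 0.280 in KO, also with overlap (exact permutation p = 0.114). That of Exosc8 to Exosc10 was 0.979 ± 0.0702 in control and 1.42 ± 0.0878 in KO without overlap. Each non-overlapping ratio had the smallest possible exact permutation p of 0.0286, which became 0.0714 after Benjamini-Hochberg adjustment over the 45 ratios. That adjusted value depended on how many ratios did not overlap, not on the size of any one shift. With 4 against 4 libraries, this test therefore could not single out a ratio, and none was past 0.05 after adjustment.

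**Figure D3:**
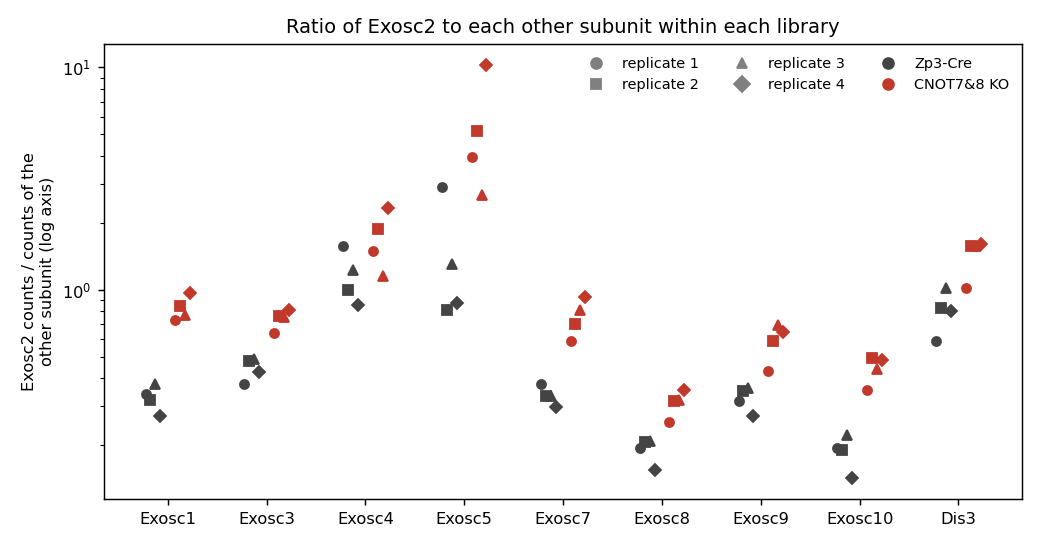
Ratio of Exosc2 counts to the counts of each other exosome gene within each library (logarithmic vertical axis), Zp3-Cre in grey and CNOT7&8 KO in red, with symbols for replicates. The KO points lie above the control points for 7 of the 9 genes, and overlap for Exosc4 and Exosc5.

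Levels of different subunits were compared as CPM per kb of the longest annotated transcript. In control oocytes Exosc8 was highest at 30.9, followed by Exosc3 at 28.7, Exosc10 at 26.0, Exosc1 at 18.2, Exosc9 at 16.9, Exosc7 at 10.5, Exosc4 at 6.77, Exosc2 at 6.55, Dis3 at 3.36 and Exosc5 at 2.31 CPM per kb. The highest and lowest differed 13.4-fold, so the mRNAs of subunits of one complex were far from equal. Neighbours whose ranges over the 4 control libraries overlapped were Exosc8 and Exosc3, Exosc3 and Exosc10, Exosc1 and Exosc9, Exosc4 and Exosc2, and Dis3 and Exosc5. Within libraries, Exosc1 was above Exosc9 in 4 of 4, the first, second and last of these pairs kept their order in 3 of 4, and Exosc4 was above Exosc2 in 2 of 4. In KO oocytes Exosc8 was again highest at 26.9 CPM per kb and Exosc5 lowest at 0.857 CPM per kb. Exosc2 lay at 9.29 CPM per kb there, and its 4 KO libraries overlapped with those of both neighbours in the order, Exosc1 and Exosc4.

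The order depended on the length used. The longest annotated transcript is a retained-intron form for Exosc2, Exosc5, Exosc7, Exosc8 and Exosc9, and that of Exosc1 is a protein-coding transcript of 2296 bases of which 585 are coding. Per kb of coding length, the control order began with Exosc8 at 86.4, Exosc1 at 71.3 and Exosc7 at 46.6, and it ended with Exosc2 at 15.5 and Dis3 at 6.03 CPM per kb. Per kb of the longest protein-coding transcript, Exosc8 was highest at 55.0, Exosc1 lay at 18.2 and Dis3 was lowest at 3.36 CPM per kb. Exosc8 was thus highest by all 3 lengths, and the last place was taken by Exosc5 or by Dis3.

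**Figure D4:**
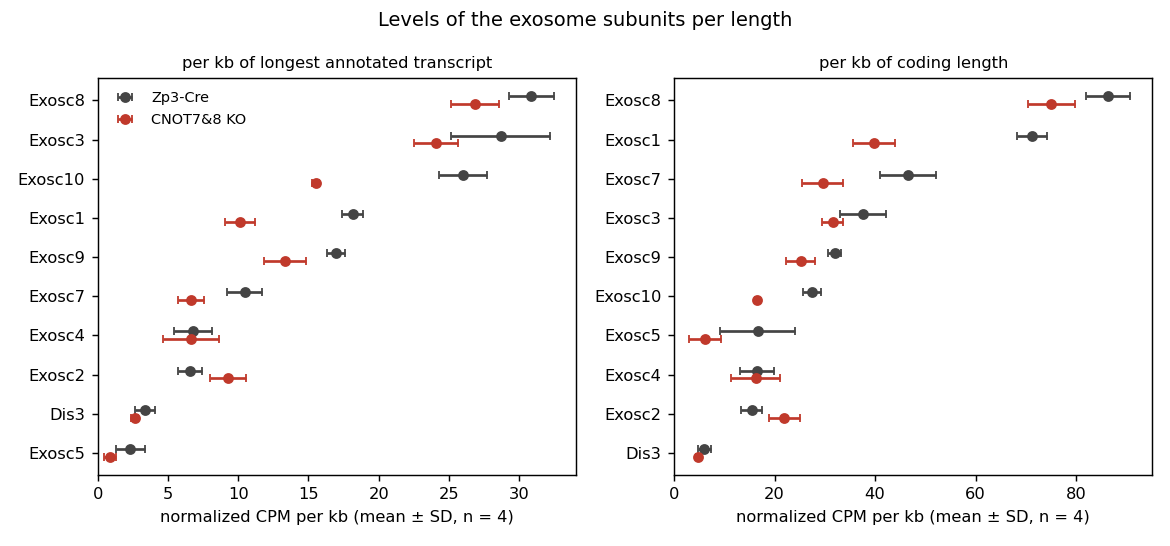
Normalized CPM per kb (horizontal axes from 0, mean ± SD of 4 libraries) of each exosome gene in Zp3-Cre (grey) and CNOT7&8 KO (red) oocytes, per kb of the longest annotated transcript on the left and of coding length on the right, ordered by the control mean. Exosc8 is at the top of both panels, and Exosc5 (2.31 CPM per kb) or Dis3 (6.03 CPM per kb) is at the bottom.

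Exon bases were shared with a gene on the opposite strand by 7 of the 10 exosome genes, over 53 to 510 bases. Where the counting did not use strand, such reads cannot be told apart, and the strand setting was not given in the sources used here. Exosc9 shared 510 of 4709 exon bases with Ccna2, a cyclin, whose level was 214 CPM in control and 206 CPM in KO oocytes. Dis3 shared 325 of 7754 exon bases with Pibf1, which fell from 51.4 to 35.6 CPM. Exosc8 shared 89 exon bases with Supt20, which fell from 109 to 67.1 CPM (log2 fold change -0.71), and Exosc3 shared 53 with Dcaf10, which rose from 32.5 to 50.6 CPM (log2 fold change 0.63). Exosc5 and Exosc4 shared bases with Tmem91 and Oplah, both under 1 CPM in either group, and the partner of Exosc2, Gm13427, was at 0 CPM.

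The genes whose profile over the 8 libraries was most like the mean profile of the exosome genes were Gfer, Ybx1 and Th, with root mean square differences of 0.025, 0.033 and 0.050 on the log2 scale among 8717 candidates. The exosome genes themselves differed from their mean by 0.15 (Exosc8) to 0.76 (Exosc5), and Exosc2 by 0.50. As to the polyadenylation element, 1 of the 5 exosome genes carrying it fell (Exosc1) and none rose, while of the 5 without it, 4 fell and 1 rose (Exosc2). Among all tested genes with a 3′UTR, 25.9% of those with the element fell and 33.8% rose, and of those without it 30.5% fell and 26.9% rose. At 10 CPM or more, a range without Exosc5, 37.3% fell and 24.4% rose with the element, and 51.0% fell and 14.4% rose without it. This comparison was added after the values were seen and carries no test.

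The exosome works with cofactors that choose its substrates. The list of 24 genes measured here holds such cofactors and also Dis3l and Dis3l2, nucleases related to Dis3. All 24 passed the filter on low counts. Of these, 10 fell, 5 rose and 9 did not pass edgeR's quasi-likelihood test, with 2 past a 2-fold change in each direction. All but Pabpn1 and Gltscr2 averaged 10 CPM or more, a range in which 41.9% of tested genes fell and 20.9% rose (24.1% and 31.2% of all tested genes). The counts of 10 and 5 were thus near the background of that range. Past 2-fold, 6.56% of all tested genes were lower and 23.8% higher, and these shares were not computed for genes of at least 10 CPM. Their median log2 fold change was -0.34, against -0.26 in that range and 0.12 over all tested genes. The groups did not overlap for 13 of the 24, against 48.4% of all tested genes.

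The MTR4 helicase gene, both genes listed under NEXT and 2 of 3 listed under TRAMP fell. Skiv2l2, which encodes the helicase MTR4 that feeds RNA into the nuclear exosome, had 114, 80.4, 72.4 and 83.5 CPM in control and 49.9, 51.3, 40.7 and 50.2 CPM in KO replicates 1 to 4. Every KO library was below every control (log2 fold change -0.87, adjusted p = 0.000434 by edgeR's quasi-likelihood test). It shares 452 of 6404 exon bases with Plpp1 on the opposite strand, which was 56.6 CPM in control and 22.7 CPM in KO oocytes. NEXT is the complex that brings short-lived nuclear transcripts to the exosome. Of the genes listed under it, the scaffold Zcchc8 fell from 309 ± 16.7 to 167 ± 10.5 CPM. The RNA-binding Rbm7 fell from 304 ± 7.39 to 216 ± 11.7 CPM (SD, n = 4 each). TRAMP adds short tails to nuclear RNA. The genes listed under TRAMP that fell were Zcchc7, from 60.2 ± 5.10 to 33.2 ± 5.15 CPM, and the poly(A) polymerase gene Papd7, from 282 ± 22.6 to 188 ± 13.2 CPM.

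In PAXT, which targets polyadenylated nuclear RNA, 1 of 6 genes rose and 1 fell, and neither call held in all alternatives. Pabpn1, the nuclear poly(A)-binding protein, had 1.31, 1.43, 1.90 and 1.60 CPM in control and 1.52, 2.86, 3.21 and 4.22 CPM in KO replicates 1 to 4. The groups overlapped, and its adjusted p of 0.0162 in edgeR's quasi-likelihood test was 0.0589 without KO replicate 4, the highest of the KO libraries. Rbm26 was 159 ± 27.2 CPM in control and 126 ± 10.7 CPM in KO oocytes, with an edgeR adjusted p of 0.0468 that did not hold under library size scaling (log2 fold change -0.041). On the same strand, Pabpn1 shares 651 of 3035 exon bases with Gm20521, and Rbm26 shares 413 of 7649 with Gm17066. Gm20521 was at 0.0407 CPM in control and 0.0717 CPM in KO oocytes, and Gm17066 at 11.8 and 10.7 CPM.

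Among the 6 nuclear adaptors, 2 fell and 3 rose. C1d, a partner of EXOSC10, had 3.66, 2.96, 6.39 and 3.13 CPM in control and 16.1, 15.4, 24.8 and 25.2 CPM in KO replicates 1 to 4. The lowest KO library was above the highest control, and its log2 fold change of 2.35 had an adjusted p of 2.07e-05 in edgeR's quasi-likelihood test, whereas Exosc10 fell. Gltscr2 (NOP53), an MTR4 adaptor in ribosome synthesis, rose from 5.65 ± 1.20 to 11.1 ± 3.40 CPM, while Nvl, another MTR4 partner in ribosome synthesis, fell from 72.2 ± 14.4 to 37.3 ± 2.97 CPM.

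In the cytoplasmic SKI group, which delivers mRNA to the exosome, 1 of 4 genes rose. Wdr61 (SKI8) had 8.63, 5.67, 8.09 and 6.12 CPM in control and 31.6, 29.3, 30.5 and 32.0 CPM in KO replicates 1 to 4. The groups were far apart (log2 fold change 2.11, adjusted p = 1.14e-06 by edgeR's quasi-likelihood test). It shares 1581 of 4669 exon bases with Dnaja4 on the opposite strand, which was 59.1 CPM in control and 64.3 CPM in KO oocytes and did not pass the test. Its partners did not pass it either, with log2 fold changes of -0.56 for the helicase Skiv2l, 0.10 for the scaffold Ttc37 and -0.030 for Hbs1l.

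The paralogues of Dis3 both fell. Dis3l, the cytoplasmic nuclease that joins the exosome, had 135, 127, 107 and 115 CPM in control and 53.5, 52.4, 62.8 and 68.2 CPM in KO replicates 1 to 4. Dis3l2, which degrades RNA from the 3′ end without the exosome, had 13.4, 17.5, 18.0 and 16.9 CPM in control and 6.95, 7.58, 7.71 and 7.05 CPM in KO replicates 1 to 4. The groups did not overlap for either gene, with log2 fold changes of -1.03 (SE 0.13) and -1.16 (SE 0.15) and adjusted p-values of 3.09e-05 and 5.85e-05 by edgeR's quasi-likelihood test. Both were past 2-fold with TMM but not with library size alone, where the log2 fold changes were -0.74 and -0.88, nor with TMM on genes of at least 10 CPM, where they were -0.78 and -0.92. Both still passed the test there. Dis3l also missed 2-fold in other alternatives, for example at -0.93 with the upper quartile.

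**Figure D5:**
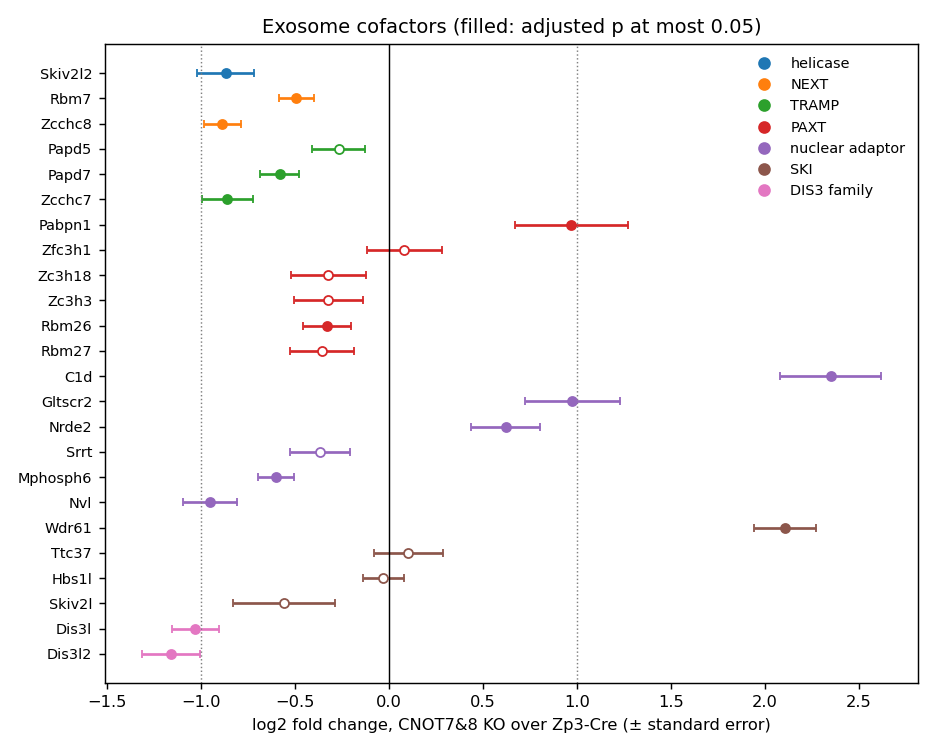
Log2 fold change (horizontal axis, KO over Zp3-Cre, bars show the standard error) of the 24 genes of the exosome cofactor list, which includes the nucleases Dis3l and Dis3l2. Colours mark the group of each gene, filled symbols an adjusted p of at most 0.05 and dotted lines 2-fold. C1d (2.35) and Wdr61 (2.11) lie beyond the right line, and Dis3l (-1.03) and Dis3l2 (-1.16) beyond the left line.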

How the data were processed

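Per the labels and the study's methods, the authors sequenced RNA of 100 oocytes per library after ribosomal RNA depletion (the labels name TruSeq Stranded Total RNA with Ribo-Zero Gold and the methods a TruSeq Stranded mRNA LT kit, and the difference was not settled). The submitters' processing notes name STAR 2.6.1d, edgeR 3.11 and GRCm38. The counting tool, annotation release and strand setting were not given in the sources used here. The deposited file holds raw counts per gene for 8 libraries. Of 46078 genes, 19241 reached 0.2 CPM in a minimum of 2 libraries and were tested with edgeR 4.0.16 (quasi-likelihood, TMM, R 4.3.3), with Benjamini-Hochberg adjustment over all of them, and single values by the exact two-sided permutation test over 70 assignments. No 2 libraries of a group were duplicates by a chi-square test of their counts. The script was tested on simulated data. Alternatives included other scalings, filters, the edgeR exact test, DESeq2 1.42.0 and leaving out libraries. All exosome genes are named. Of the cofactors, the 3 with the largest fold change past the threshold in each role are named, and the others only by count or as partners of a named gene. The genes, lists and tests were chosen with earlier results of these data known. Coordinates are from GENCODE vM21 (GRCm38).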

Additional observations from a re-analysis of the deposited data

How the results depend on the processing

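The number of exosome genes lower in KO was 5, and the number higher was 1, against 24.1% and 31.2% of all genes tested. Requiring 10 CPM in 4 libraries gave 3 lower exosome genes, none of them past 2-fold (0), and 3 cofactors higher. Of the 8989 genes tested under that filter, 2992 were lower and 2511 higher, so the exosome genes were lower about as often as the rest. Exosc5 was not tested there, and Exosc9 had a log2 fold change of -0.22 with an edgeR adjusted p of 0.113. Leaving out 1 library at a time gave 4 to 5 lower and 0 to 1 higher exosome genes, the 0 arising without control replicate 4. Of the cofactor list, which includes Dis3l and Dis3l2, 14 to 20 genes were then past the threshold. Without control replicate 1, which gave the 20, 4843 of 19173 genes tested were lower and 6189 higher. Without control replicate 4, 4211 of 19103 were lower and 5363 higher. Log2 fold changes of genes that had not passed the test turned positive as follows. With library size alone they were 0.035 for Exosc3, 0.26 for Exosc4 and 0.080 for Exosc8, and with TMM on genes of at least 10 CPM 0.0032, 0.21 and 0.044. Exosc4 was also 0.068 with the upper quartile, 0.044 with 1 CPM in 4 libraries, 0.086 with 10 CPM in 4 libraries, and -0.24 to 0.11 when 1 library at a time was left out. The cause was not tested. Whether the replicate numbers pair the libraries was not settled. Correlations of same-numbered deviations were -0.56 to 0.38 over 4 pairs. Control replicate 1 and KO replicate 4, the libraries that stood apart, correlated at 0.82, and such libraries weigh on the other values. With the replicate number as a block, 4 exosome genes were lower and 1 higher, the edgeR adjusted p of Exosc9 being 0.0805. Of all 19241 genes tested, 4201 were lower and 5511 higher with that block. Without both libraries that stood apart, an alternative chosen after seeing the data, 5 exosome genes were lower and 1 higher. Of the 18665 genes tested there, 4900 were lower and 5927 higher. Exosc5 had the fewest counts of the exosome genes.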
